A study of Mus musculus with 9 samples.

Results

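The myeloid C-type lectin receptors described here are 8 genes picked by symbol: Clec4a1, Clec4a2, Clec4a3, Clec4d, Clec4e, Clec4n, Clec7a and Clec12a. Of these, 7 had a row among the 31053 genes of the feature table. Clec7a, the gene of Dectin-1, was not analysed here, because the feature table has no row of that symbol. The data are single-cell RNA-seq counts of femur bone marrow from 3 groups of 3 female mice aged 9 - 10 weeks: the New Zealand Black strain (NZB), the New Zealand White strain (NZW) and their F1 hybrid (NZBWF1). The groups differed in strain and were given no treatment or engineered allele. NZBWF1 mice develop a lupus-like disease with age, and both inbred parents served as comparators. Each mouse gave 1 library after lysis of red blood cells, and all tests were made over mice.

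C-type lectin receptors are surface proteins by which myeloid cells bind sugars, glycolipids and products of dead cells. The activating members signal mainly through the adaptor chain FcRγ, which recruits the kinase Syk and, through Card9, Bcl10 and Malt1, turns on NF-κB. The inhibitory members carry a cytoplasmic ITIM motif that recruits the phosphatases Ptpn6 and Ptpn11. Among the activating genes, Clec4e encodes Mincle, a receptor of mycobacterial cord factor, Clec4d encodes MCL, which associates with Mincle, and Clec4n encodes Dectin-2, a receptor of fungal mannans. Clec4a2 encodes DCIR1 and Clec12a encodes MICL, both inhibitory. Clec4a1 and Clec4a3 encode DCIR4 and DCIR3, close relatives of DCIR1.

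All 8 genes lie on mouse chromosome 6 (GRCm38). Clec4a1 (122921848-122934619, + strand), Clec4a3 (122952515-122969875, +), Clec4a2 (123106428-123143999, +), Clec4n (123229843-123247021, +) and Clec4d (123262111-123275265, +) follow each other on 1 strand. Clec4e (123281789-123289870) lies on the other strand, and the 3′ ends of Clec4d and Clec4e face each other 6.52 kb apart. Clec12a (129342691-129365303, +) and Clec7a (129461591-129472779, -) stand 6.05 Mb further along. The last 500 bases of each of the 7 measured transcripts, from which 3′ reads are counted, shared 0 of 470 windows of 31 bases with any other gene.

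Clec4d and Clec4e were the members with the largest called differences between the strains, so the stretch around each of their start sites is shown. Each runs from 250 bases before to 50 bases after the start, 5′ to 3′ along the gene, as given by RefSeq for GRCm38.p6, which is the C57BL/6J reference and not a New Zealand strain. The windows are chr6:123261857-123262156 (+) for Clec4d and chr6:123289822-123290121 (-) for Clec4e. Capitals mark matches, on either strand, to GAGGAA, a core bound by the myeloid factor PU.1, and to TTGCNNAA, a C/EBP core. The motifs share no letters here.
Clec4d: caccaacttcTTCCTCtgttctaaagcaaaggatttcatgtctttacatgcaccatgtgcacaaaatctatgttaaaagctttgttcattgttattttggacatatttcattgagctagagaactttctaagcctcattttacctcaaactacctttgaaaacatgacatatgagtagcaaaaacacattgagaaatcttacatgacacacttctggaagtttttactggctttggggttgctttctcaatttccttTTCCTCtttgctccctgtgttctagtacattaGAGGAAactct
Clec4e: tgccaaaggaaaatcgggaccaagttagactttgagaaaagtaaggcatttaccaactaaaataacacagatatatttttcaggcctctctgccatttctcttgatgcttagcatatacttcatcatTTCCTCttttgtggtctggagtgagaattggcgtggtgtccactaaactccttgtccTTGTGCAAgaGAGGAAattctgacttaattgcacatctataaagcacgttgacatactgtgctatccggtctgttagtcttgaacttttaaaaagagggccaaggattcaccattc
The Clec4d stretch held 3 matches to GAGGAA and 0 to TTGCNNAA, and the Clec4e stretch held 2 and 1, the C/EBP match starting at position -66 from the start site. Of all 32851 promoters of this length, 28.3% held GAGGAA, 10.8% held TTGCNNAA and 2.92% held both. A match is a description of the letters only.

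The libraries held 4793 to 10269 barcodes called as cells per mouse, and 70 to 165 of a library's barcodes also occurred in another library. After quality limits and removal of 1458 barcodes scored as doublets, 37593 cells were analysed, 2407 to 5426 per mouse, with 7860085 to 17326509 unique molecular identifiers (UMIs, counted transcript molecules) per mouse. A pair of library kinds stood apart that did not follow strain: 4 libraries (NZB replicate 2, NZW replicate 2, NZBWF1 replicates 1 and 2) had 2978 to 5401 barcodes of 10 to 99 UMIs, and the other 5 had 21083 to 44883. Each cell was placed in 1 of 16 classes by marker genes, and none of the members was a marker. All markers of a class were more than 2-fold higher in it than elsewhere, except 1 of 11 macrophage markers (Arg1, at 0) and 1 of 10 of the stem and progenitor class (Ly6a, at 53.6 CPM against 109 CPM elsewhere). The same markers set the classes, so this is no independent check of them. Of the cells, 8.25% carried markers of more than 1 class and 3.86% reached no class, and these were left out. In all 3135 cells lay near a gate limit, of which 847 carried markers of more than 1 class and 686 reached no class. The classes used most were neutrophil-like (12239 cells), classical monocyte-like (4921), granulocyte-monocyte precursor-like (2706), plasmacytoid dendritic-like (2404) and nonclassical monocyte-like cells (202, with at least 10 in 8 mice). Levels are given in CPM, the UMIs of a gene scaled to a common total, in the cells of 1 class of 1 mouse. They were compared between classes and mice and not between genes.

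The receptors fell into different class patterns, shown in the plot of members by class. Among the 13 classes with at least 10 cells in 6 or more mice, Clec4a1 and Clec4a3 were highest in monocyte-like cells. Clec4a2 was highest in neutrophil-like cells, and Clec12a spread over precursors, plasmacytoid dendritic cells, granulocytes and monocytes. Conventional dendritic-like cells (73 in all) were too few for that order. In 2 NZW mice they averaged 149 ± 68.8 CPM of Clec4a1, 87.0 ± 16.7 of Clec4a3, 37.2 ± 17.2 of Clec4a2 and 249 ± 108 of Clec12a. Classical monocyte-like cells of NZW mice averaged 118 CPM of Clec4a1 and 120 of Clec4a3. Clec4d and Clec4e were low in most classes, and both were highest among neutrophil-like cells in the mature ones. Over 84 tests of neighbours in the order of 13 classes (exact paired sign-flip permutation test over mice, two-sided), 17 had an unadjusted p under 0.05 and 0 passed after Benjamini-Hochberg adjustment. With 9 mice the smallest p is 0.00391, reached by 5 pairs, and the smallest adjusted value was 0.0656. The order tests alone therefore separate no neighbours, and the class differences below come from a fit across all genes.

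Clec4a1, the gene of DCIR4, was measured at 337 to 686 CPM in nonclassical monocyte-like cells of the 8 mice with enough cells (mean 524 ± 115 SD). In classical monocyte-like cells it ranged from 50.1 to 127 CPM (mean 101 ± 29.8, n = 9), and in neutrophil-like cells it averaged 1.70 ± 1.19 CPM. The 3 ranges did not overlap. A Clec4a1 UMI was seen in 54.0% of nonclassical and 21.5% of classical monocyte-like cells. The share was 0.218% in B cell-like and 0.632% in erythroid-like cells, which were taken as a guide to free RNA. The median depths of these classes were 1259, 2148, 1696 and 9335 UMIs per cell.

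Clec4a3, the gene of DCIR3, followed the same order with 792 to 1072 CPM in nonclassical monocyte-like cells (mean 929 ± 118, n = 8), 93.8 to 168 CPM in classical ones (mean 121 ± 25.2, n = 9) and 2.57 ± 1.59 CPM in neutrophil-like cells. Again the ranges were apart. UMIs of Clec4a3 were found in 73.8% of nonclassical and 24.1% of classical monocyte-like cells, against 0.171% of B cell-like cells. Over the means of 13 classes the patterns of Clec4a1 and Clec4a3, which are neighbours on the chromosome, had a Pearson r of 0.989, a description over classes that share the same libraries.

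Clec4a2, the gene of DCIR1, had 425 to 538 CPM in neutrophil-like cells (mean 471 ± 36.9), 191 to 273 CPM in classical monocyte-like cells (mean 232 ± 30.7) and 104 to 215 CPM in granulocyte-monocyte precursor-like cells (mean 157 ± 33.9). The neutrophil-like level was the higher in 9 of 9 mice. In nonclassical monocyte-like cells the mean was 76.0 ± 51.9 CPM, with 0 UMIs in 1 of the 8 mice. Clec4a2 was found in 68.6% of neutrophil-like cells and in 0.374% of B cell-like cells.

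Clec12a, the gene of MICL, was highest in granulocyte-monocyte precursor-like cells, at 477 to 728 CPM (mean 569 ± 80.1), followed by plasmacytoid dendritic-like cells at 288 to 494 CPM (mean 417 ± 58.1). Basophil or mast-like cells came next with 403 ± 144 CPM in 6 mice. Neutrophil-like cells had 341 ± 20.3 CPM, nonclassical monocyte-like cells 299 ± 128 CPM and classical ones 187 ± 40.8 CPM. In plasmacytoid dendritic-like cells the other 6 members averaged at most 1.81 CPM. UMIs of Clec12a were seen in 46.8% of those cells, 82.0% of the precursors and 1.46% of B cell-like cells. The median depths of these classes were 1694.5, 4875.5 and 1696 UMIs per cell, and the shares were not thinned to 1 depth.

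Clec4e, the gene of Mincle, averaged 129 ± 56.8 CPM in nonclassical monocyte-like cells from 2 to 8 UMIs per mouse. It averaged 46.7 ± 20.5 CPM in neutrophil-like cells and 38.7 ± 41.2 CPM in classical monocyte-like cells, a pair whose order differed between mice (higher in neutrophil-like cells in 7 of 9, exact permutation p = 0.0742, adjusted p = 0.328). Clec4d, the gene of its partner MCL, averaged 22.3 ± 10.9 CPM in neutrophil-like and 11.6 ± 7.62 CPM in classical monocyte-like cells. Its mean of 47.3 ± 39.4 CPM in megakaryocyte-like cells came from 10 to 33 cells in each of 6 mice and overlapped the neutrophil-like values. Basophil or mast-like cells averaged 26.2 ± 14.1 CPM in 6 mice. Clec4d UMIs were seen in 2.64% of classical monocyte-like cells (exact binomial 95% interval 2.21 to 3.13). That share was above the 0.203% (0.108 to 0.346) of B cell-like cells, whose median depth was 1696 against 2148 UMIs, and below the 3.42% of erythroid-like cells at 9335 UMIs. These shares were not thinned to 1 depth. Erythroid-like cells averaged 4.73 CPM of Clec4d and B cell-like cells 0.737 CPM. Whether the erythroid-like UMIs were free RNA was not tested. The 32.2% of mature neutrophil-like cells was above both.

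Clec4n, the gene of Dectin-2, averaged 50.02 ± 72.7 CPM in nonclassical monocyte-like cells, where 3 of the 8 mice had 0 UMIs and an NZB mouse reached 218 CPM. In the other 12 classes of the order its mean was at most the 5.08 ± 3.34 CPM of classical monocyte-like cells (0 to 15 UMIs per mouse). It passed the filter on low counts in no class taken alone. It entered only the fits of strain and class together, where the NZB minus NZW difference in neutrophil-like minus that in classical monocyte-like cells was 1.82 ± 1.38 (edgeR adjusted p = 0.487). In 69 macrophage-like cells, 1 to 15 per mouse and too few for a test, 24 Clec4n UMIs among 128811 gave 186 CPM (exact Poisson 95% interval 119 to 277). The same pool held 427 CPM of Clec4a1 (322 to 556), 365 of Clec4a2 (268 to 485), 279 of Clec4a3 (196 to 387) and 489 of Clec12a (376 to 626). Clec4d had 1 UMI, 7.76 CPM (0.197 to 43.3), and Clec4e 0 UMIs, which allows up to 23.3 CPM at a limit of 3 counts and 28.6 CPM by the exact interval. These intervals cover counting error only. A further 170 cells carried macrophage and neutrophil markers together and were not counted as macrophage-like.

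**Figure D1:**
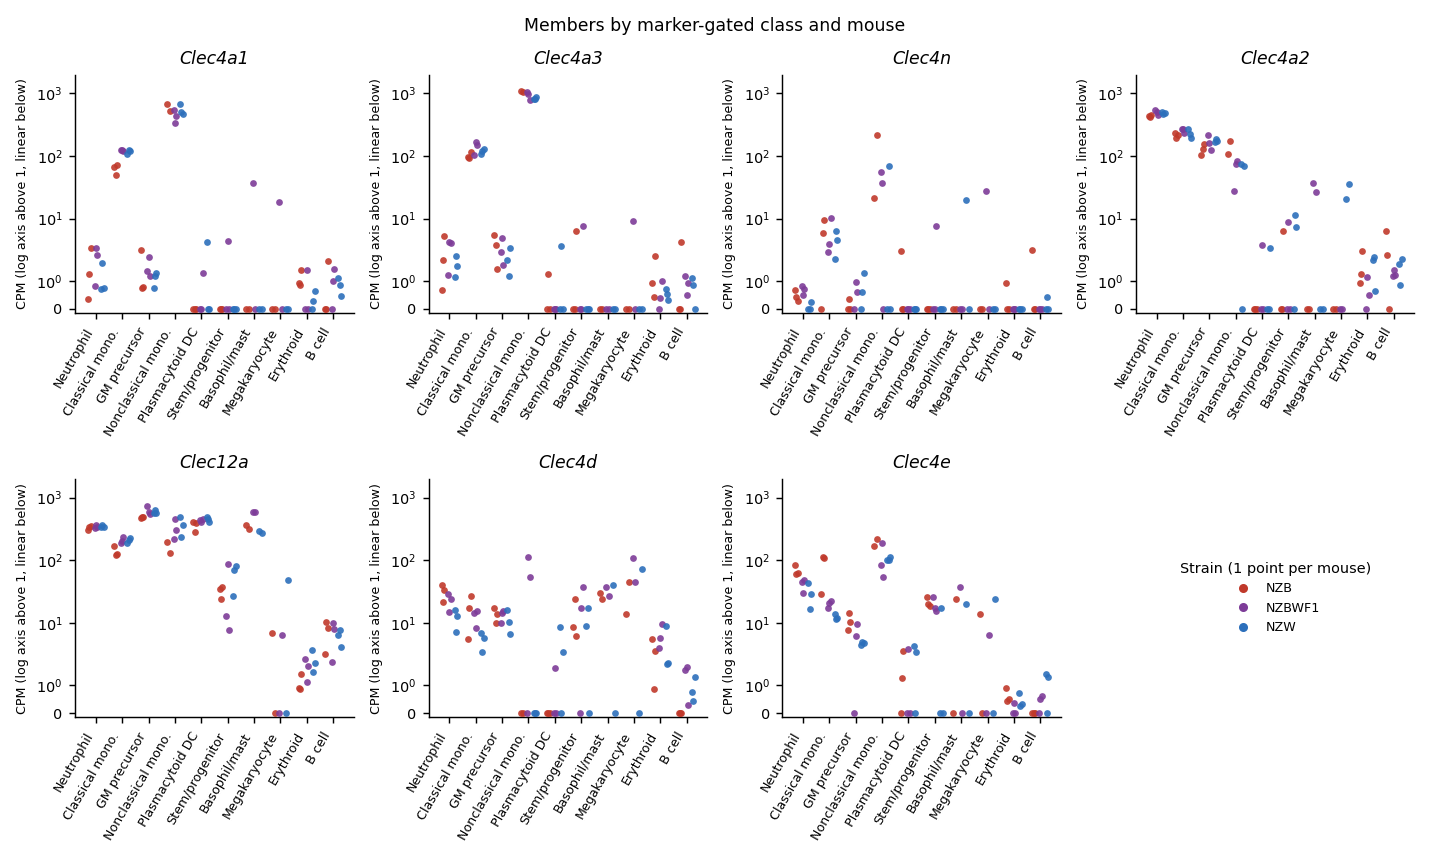
Level in CPM (symmetric log axis, linear below 1) of each measured member by marker-gated class, 1 point per mouse, coloured by strain. Clec4a1 and Clec4a3 peak in nonclassical monocyte-like cells (means 524 and 929 CPM), Clec4a2 in neutrophil-like cells (471 CPM) and Clec12a in granulocyte-monocyte precursor-like cells (569 CPM).

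Class differences were tested with edgeR's quasi-likelihood fit over all genes with the mouse as a block. Fold changes are log2 values with their standard error (SE). They are given first under TMM scaling, which sets the bulk of genes to no change, and then under scaling by library totals, which sets the summed UMIs equal. The scalings differed: the median of all genes tested, neutrophil-like against classical monocyte-like, was -0.03 under TMM and -1.23 under library totals. In that comparison 76.9% and 93.1% of all genes were called, so a call carries little for a member, and the sizes matter more. Under TMM 6 of 6 tested members were called. Clec4a1 was lower in neutrophil-like cells by -4.62 ± 0.21 (library totals -5.80) and Clec4a3 by -4.32 ± 0.16 (-5.53). Clec4a2 was higher by 2.24 ± 0.07 (1.03), Clec4d by 2.12 ± 0.18 (0.89) and Clec12a by 2.11 ± 0.11 (0.89). Clec4e was higher by 1.66 ± 0.32 under TMM (edgeR adjusted p = 0.001), and its 0.45 under library totals did not pass (adjusted p = 0.21). It also did not pass with the stricter cell limits of 2000 UMIs and 1000 genes (0.42, adjusted p = 0.389).

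Within the neutrophil course Clec4d and Clec4e rose together towards the mature cells while Clec12a fell, as the plot along the neutrophil course shows. Neutrophil-like cells were divided into dividing cells, immature cells by granule genes such as Camp and Ltf, and mature cells by genes such as Cxcr2 and Mmp9. A cell counted as dividing with at least 2 UMIs summed over a set of cell cycle genes, a limit not scaled to depth. Of the non-dividing cells, 319 lay within 0.05 of the limit between immature and mature. Clec4d averaged 12.7 CPM in granulocyte-monocyte precursor-like cells, 4.62 in dividing, 17.6 in immature and 218 ± 75.9 CPM in mature neutrophil-like cells. The lowest mature value, 125 CPM, lay above the highest immature value, 26.7 CPM. Clec4e averaged 6.93, 13.8, 56.2 and 215 ± 73.2 CPM along the same steps, and its lowest mature value, 97.2 CPM, lay above the highest immature one, 93.3 CPM. Clec12a went the other way, with 569, 376, 324 and 229 CPM, and Clec4a2 stayed between 469 and 474 CPM over the 3 neutrophil-like stages after 157 CPM in the precursors.

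Mature against immature cells, 4 of 4 tested members were called under TMM, where 42% of all genes were called (42.7% under library totals). Clec4d was higher by 3.38 ± 0.13 (library totals 3.61) and Clec4e by 1.71 ± 0.12 (1.94), in an edgeR fit with adjusted p of 2.75e-34 and 1.3e-20. Clec12a was lower by -0.72 ± 0.10 (-0.48), called under both. Clec4a2 was lower by -0.21 under TMM (adjusted p = 0.0191) and at 0.03 under library totals (adjusted p = 0.784), so it has no direction. Between immature and dividing cells, where 72.9% of all genes were called under either scaling, Clec4d was higher by 2.13 ± 0.18 (1.92) and Clec4e by 2.20 ± 0.11 (1.98). Clec12a was at -0.01 under TMM and -0.21 under library totals, and only the latter was called. Against granulocyte-monocyte precursor-like cells (83.7% of all genes called, 87.4% under library totals), neutrophil-like cells were higher in Clec4e by 3.46 ± 0.17 (2.58), in Clec4a2 by 2.47 ± 0.09 (1.61) and in Clec4d by 1.59 ± 0.18 (0.70). Clec12a turned with the scaling there, from 0.13 (adjusted p = 0.109) to -0.73.

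**Figure D2:**
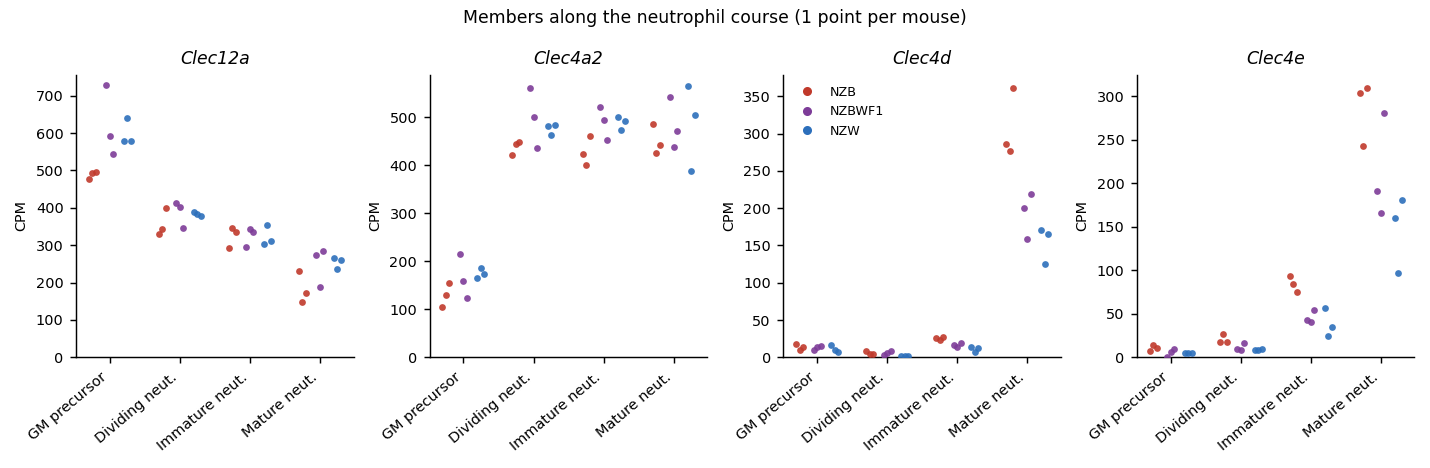
Level in CPM (linear axes) of members in granulocyte-monocyte precursor-like cells and in dividing, immature and mature neutrophil-like cells, 1 point per mouse, coloured by strain. Clec4d rises from a mean of 17.6 CPM in immature to 218 CPM in mature cells and Clec4e from 56.2 to 215 CPM, while Clec12a falls from 324 to 229 CPM.

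In the monocyte lineage Clec4a1, Clec4a3 and Clec4e were highest in the nonclassical gate and Clec4a2 in the classical one. Nonclassical monocytes are patrolling cells that arise from classical monocytes and were gated on genes such as Treml4, Ace and Cx3cr1. Over 8 mice 5 of 5 tested members were called, against 30.8% of all genes (29.2% under library totals). Of these, Clec4a2 and Clec4e did not pass the filter on low counts in nonclassical cells taken alone. Clec4a3 was higher by 2.76 ± 0.15 (library totals 2.90), Clec4a1 by 2.17 ± 0.18 (2.31) and Clec4e by 2.13 ± 0.35 (2.30). Clec4a2 was lower by -1.81 ± 0.27 (-1.67), but it entered the fit through the classical cells, where it is high, so its call carries little. Clec12a was higher by 0.48 ± 0.19 (edgeR adjusted p = 0.0396), and this call was lost with no filter on low counts (0.15, adjusted p = 0.753), with limma voom, with the strict gate and without any of NZBWF1 replicates 1 and 2 and NZW replicates 1 and 3, where its adjusted p reached 0.331.

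Among classical monocyte-like cells, the dividing cells had less of 5 of 5 tested members than the non-dividing ones, against 49.3% of all genes called in either direction (49.6% under library totals). Clec4a3 was higher in non-dividing cells by 2.57 ± 0.22 (library totals 2.54), Clec4a1 by 2.54 ± 0.19 (2.52), Clec4e by 1.04 ± 0.20 (1.01), Clec12a by 0.63 ± 0.08 (0.61) and Clec4a2 by 0.59 ± 0.07 (0.57). In non-dividing cells Clec4a1 ranged from 81.7 to 260 CPM and Clec4a3 from 189 to 274 CPM. In dividing cells these ranges were 23.1 to 43.4 and 19.8 to 73.7 CPM, without overlap for either gene. The classical monocyte-like cells of NZB mice held more dividing cells, 58.9%, 76.2% and 55.3% in the 3 mice, than those of NZW mice (33.3% to 34.8%) or NZBWF1 mice (28.9% to 39.4%). The called strain differences in these cells are therefore given also within the non-dividing and the dividing cells where those could be tested. The limit of 2 cell cycle UMIs for a dividing cell was not scaled to depth here either. Median depth of the classical monocyte-like cells was 2838 to 3475 UMIs in NZB, 1691 to 2212 in NZW and 1744.5 to 2526 in NZBWF1 mice. The part of depth in the shares of dividing cells was not tested.

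**Figure D3:**
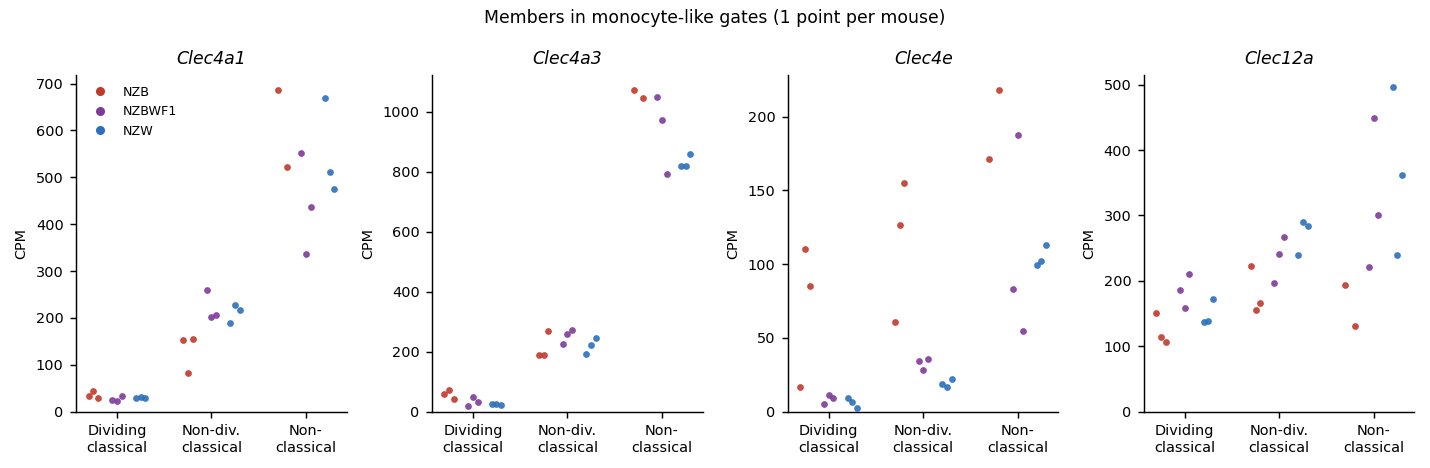
Level in CPM (linear axes) of members in dividing classical, non-dividing classical and nonclassical monocyte-like cells, 1 point per mouse, coloured by strain. Non-dividing cells hold more Clec4a1 (81.7 to 260 CPM) than dividing ones (23.1 to 43.4 CPM), and nonclassical cells the most.

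Between the parent strains Clec4e and Clec4d were higher in NZB than in NZW mice, in both classical monocyte-like and neutrophil-like cells. Clec4a1 and Clec12a were lower in NZB classical monocyte-like cells taken whole. In nonclassical monocyte-like cells, with 2 NZB and 3 NZW mice, only 745 genes and 3 members could be tested. None of these members, Clec4a1, Clec4a3 and Clec12a, was called between the parents. The other measured members did not pass the filter on low counts in that class. There Clec4a1 was at 523 to 686 CPM in NZB and 476 to 670 CPM in NZW mice. Clec4a3 was at 1045 to 1072 against 818 to 861 CPM, and Clec12a at 131 to 193 against 239 to 496 CPM. Over all classes 23 member tests could be made for each contrast. NZB against NZW gave 9 calls (5 higher and 4 lower in NZB, 8 by DESeq2). Of these, 2 higher and 2 lower were in classical monocyte-like cells, where 23.8% of all genes were called, 12.4% higher and 11.4% lower. In neutrophil-like cells 2 were higher, where 12.4% of all genes were called and 6.62% were higher. In granulocyte-monocyte precursor-like cells 1 was higher and 2 lower, where 11.5% of all genes were called, 5.33% higher and 6.16% lower. Fits within stages called 11% of all genes in dividing, 13.2% in immature and 6.88% in mature neutrophil-like cells, and 13.3% in dividing and 16.8% in non-dividing monocyte-like cells. The mice of a strain were separate animals delivered together, and the reference genome was that of another strain, C57BL/6J. Whether strain variants change how reads of these genes align was not tested.

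Clec4e in classical monocyte-like cells was at 29.1, 113 and 108 CPM in the 3 NZB mice (26, 231 and 112 UMIs), at 13.7, 11.5 and 11.9 CPM in NZW mice and at 17.3, 21.1 and 22.5 CPM in NZBWF1 mice. Every NZB value lay above every other value, with NZB replicate 1 the nearest to the rest. The log2 difference, NZB minus NZW, was 2.86 ± 0.51 (edgeR adjusted p = 0.00687), and it passed in all 21 alternatives run, between 2.51 and 3.31. In non-dividing cells alone the NZB values of 60.7, 127 and 155 CPM stood above 16.5 to 22.2 CPM in NZW mice (2.60 ± 0.27, adjusted p = 4.12e-11), and in dividing cells the difference was 3.77 ± 0.84 (adjusted p = 0.0314). With the kind of library as a block the difference was 2.82 ± 0.52. Median depth of the classical monocyte-like cells was 2838 to 3475 UMIs in NZB mice and 1691 to 2212 in NZW mice, and its part in the difference was not tested.

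Clec4e in neutrophil-like cells was at 84.4, 59.3 and 63.0 CPM in NZB mice, at 42.8, 16.9 and 28.9 CPM in NZW mice and at 45.6, 29.8 and 49.1 CPM in NZBWF1 mice. The NZB values again lay above all others. The difference was 1.37 ± 0.32 (edgeR adjusted p = 0.0196), and it was 1.42 ± 0.23 with the kind of library as a block (adjusted p = 0.00107). It missed the threshold without NZB replicate 1 (1.16, adjusted p = 0.0694), without NZBWF1 replicate 1 (adjusted p = 0.0702) and without NZW replicate 3 (adjusted p = 0.0662). It passed in each stage taken alone: 1.35 ± 0.27 in dividing, 1.26 ± 0.27 in immature and 1.06 ± 0.26 in mature cells, with adjusted p of 0.000204, 0.0108 and 0.0111. In mature cells NZB mice had 304, 243 and 310 CPM and NZW mice 160, 97.2 and 181 CPM, without overlap.

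In granulocyte-monocyte precursor-like cells Clec4e was at 7.81, 14.6 and 10.2 CPM in NZB and 4.42, 4.87 and 4.69 CPM in NZW mice, from 6 to 39 UMIs a mouse. The difference of 1.21 ± 0.40 (edgeR adjusted p = 0.0347) was lost in 8 of the alternatives, with DESeq2 (adjusted p = 0.223), the cell limits of 2000 UMIs and 1000 genes, the strict gate and the replicate block among them. The other 4 were without NZB replicate 2 (0.82, adjusted p = 0.376) and without each of the NZW mice (adjusted p up to 0.127).

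Clec4d in neutrophil-like cells was at 40.8, 21.4 and 34.0 CPM in NZB mice, at 15.99, 7.04 and 13.1 CPM in NZW mice and at 29.2, 14.9 and 24.4 CPM in NZBWF1 mice. The NZB and NZW values did not overlap, and the hybrid values overlapped both. Within each replicate number, which the labels do not give as a pairing, the order was NZB, NZBWF1, NZW. In the main fit the hybrid was called against neither parent in these cells. The difference, NZB minus NZW, was 1.54 ± 0.34 (edgeR adjusted p = 0.0116), and 1.57 ± 0.24 with the kind of library as a block (adjusted p = 0.0003). It missed the threshold with the limits of 2000 UMIs and 1000 genes per cell (1.16, adjusted p = 0.131). The mature share of the neutrophil-like cells was 4.7% to 12.7% in NZB and 3.1% to 7.8% in NZW mice. Within mature cells the difference was 1.10 ± 0.23 (287, 277 and 361 against 171, 125 and 166 CPM, adjusted p = 0.00336), within immature cells 1.30 ± 0.23 (adjusted p = 0.0002) and within dividing cells 1.36 ± 0.52 (adjusted p = 0.0829).

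In classical monocyte-like cells Clec4d was low, at 5.59, 17.2 and 27.0 CPM in NZB mice (5, 35 and 28 UMIs) and at 6.87, 3.44 and 5.69 CPM in NZW mice (9, 6 and 10 UMIs). NZB replicate 1 lay within the NZW range, so the groups overlapped. The difference of 1.71 ± 0.40 (edgeR adjusted p = 0.00206) nonetheless passed in all 21 alternatives, between 1.36 and 2.54. In non-dividing cells it was 1.85 ± 0.43, and Clec4d had too few UMIs in dividing cells for a test. In granulocyte-monocyte precursor-like cells the difference was 0.16 ± 0.30 (adjusted p = 0.826).

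Clec4a1 in classical monocyte-like cells was at 67.1, 50.1 and 71.4 CPM in NZB mice, at 108, 127 and 121 CPM in NZW mice and at 123, 125 and 120 CPM in NZBWF1 mice. All NZB values were below all others. The difference, NZB minus NZW, was -0.95 ± 0.13 (edgeR adjusted p = 1.09e-06). The dividing cells, which hold less Clec4a1, were the more common in NZB mice. In non-dividing cells alone, with 154, 81.7 and 155 CPM against 190, 227 and 217 CPM, the difference was -0.74 ± 0.17 (adjusted p = 0.00156), and in dividing cells it was 0.34 (adjusted p = 0.385). With the stricter cell limits it was -0.17 (adjusted p = 0.744).

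Clec12a in classical monocyte-like cells was at 171, 122 and 126 CPM in NZB mice, at 188, 212 and 226 CPM in NZW mice and at 191, 206 and 238 CPM in NZBWF1 mice, again with the NZB values lowest. The difference was -0.59 ± 0.12 (edgeR adjusted p = 0.000419), -0.62 ± 0.15 in non-dividing cells (adjusted p = 0.00256) and -0.28 in dividing cells (adjusted p = 0.201). The stricter cell limits gave -0.33 (adjusted p = 0.14). In granulocyte-monocyte precursor-like cells NZB mice had 477, 493 and 495 CPM and NZW mice 578.4, 639 and 578.5 CPM, a difference of -0.39 ± 0.11 (adjusted p = 0.00911) that was lost with clusters in place of gates (-0.18, adjusted p = 0.305) and without NZW replicate 2 (adjusted p = 0.0702). In neutrophil-like cells the groups overlapped at 299 to 354 and 335 to 367 CPM (0.11 under TMM, adjusted p = 0.597, and -0.07 under library totals, adjusted p = 0.719).

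Clec4a2 was lower in NZB granulocyte-monocyte precursor-like cells, at 104, 130 and 155 CPM against 166, 186 and 173 CPM in NZW mice (-0.53 ± 0.13, edgeR adjusted p = 0.005). In neutrophil-like cells NZB mice had 428, 425 and 454 CPM of Clec4a2 and NZW mice 497, 466 and 488 CPM, so every NZB value was below every NZW value. The fitted difference was 0.03 under TMM (adjusted p = 0.924) and -0.15 under library totals (adjusted p = 0.387), so its sign depends on the scaling. In classical monocyte-like cells it was -0.07 (adjusted p = 0.7, with 0.09 in dividing and -0.01 in non-dividing cells). Clec4a3 in classical monocyte-like cells was at 95.03, 93.8 and 118 CPM in NZB and 108, 122 and 131 CPM in NZW mice, which overlapped (-0.24 ± 0.14, adjusted p = 0.22). Its stages differed: in dividing cells NZB mice had 58.7, 73.7 and 43.2 CPM against 25.4, 26.8 and 22.2 CPM (1.33 ± 0.23, adjusted p = 2.98e-05), and in non-dividing cells the difference was -0.03 (adjusted p = 0.925). For the whole gate, clusters in place of gates gave -0.42 (adjusted p = 0.0237) and the stricter cell limits 0.56 (adjusted p = 0.0404), so the settings disagree in sign.

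**Figure D4:**
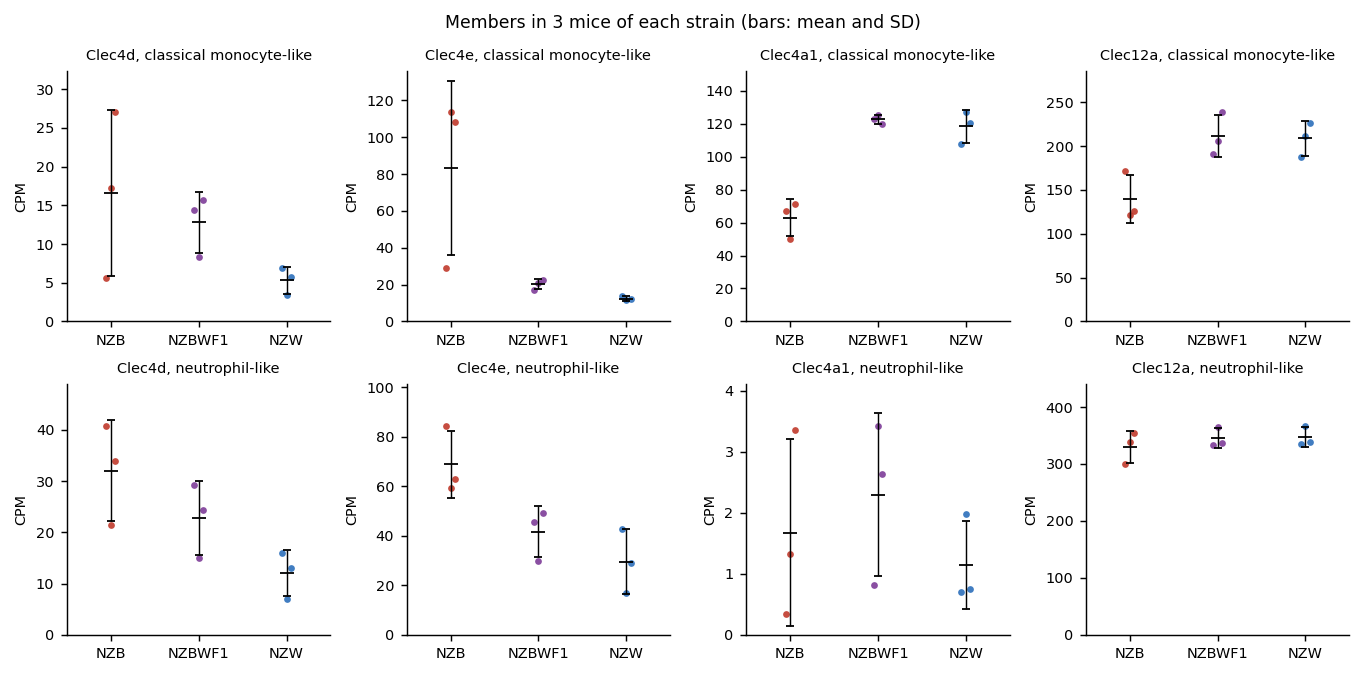
Level in CPM (linear axes from 0) of Clec4d, Clec4e, Clec4a1 and Clec12a in classical monocyte-like and neutrophil-like cells, 1 point per mouse, with the mean and SD of 3 mice per strain as bars. The NZB values of Clec4e lie above all others in classical monocyte-like cells (29.1 to 113 CPM against 11.5 to 22.5), and those of Clec4a1 below all others (50.1 to 71.4 CPM against 108 to 127).

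In classical monocyte-like cells of the hybrid, taken whole, Clec4a1, Clec12a and Clec4a3 were higher and Clec4e was lower than in NZB mice. NZBWF1 against NZB gave 4 calls of 23 tests, all in those cells, where 15.9% of all genes were called, 7.75% higher and 8.13% lower (3 calls by DESeq2). In the dividing and non-dividing cells taken alone 6.02% and 9.58% of all genes were called. Clec4a1 was higher in the hybrid by 0.98 ± 0.14 (edgeR adjusted p = 2.62e-06) and Clec12a by 0.61 ± 0.12 (adjusted p = 0.00081). Within stages Clec4a1 passed in non-dividing cells (0.74 ± 0.18, adjusted p = 0.00349) and had the opposite sign in dividing ones (-0.48 ± 0.25, adjusted p = 0.304). Clec12a passed in dividing cells (0.56 ± 0.14, adjusted p = 0.00809) and was at 0.42 ± 0.16 in non-dividing ones (adjusted p = 0.0862). Neither passed with the stricter cell limits (adjusted p of 0.51 and 0.105). Clec4a3 was higher by 0.51 ± 0.14 (adjusted p = 0.00979), but lower in dividing cells (-0.85 ± 0.23, adjusted p = 0.0162) and at 0.22 in non-dividing cells (adjusted p = 0.405). Without NZB replicate 2, NZBWF1 replicate 2 or NZBWF1 replicate 3 its adjusted p was 0.088, 0.163 and 0.0556, and it also missed the threshold with DESeq2 and the strict gate (0.0636 and 0.0854). With the stricter cell limits the sign turned (-0.24, adjusted p = 0.521). In granulocyte-monocyte precursor-like cells, where 2.73% of all genes were called, Clec12a (0.35 ± 0.11, adjusted p = 0.0628) and Clec4a2 (0.32 ± 0.14, adjusted p = 0.252) did not pass. There Clec12a passed with the stricter cell limits (0.37, adjusted p = 0.0426), Clec4a2 with clusters in place of gates (0.54, adjusted p = 0.0364) and with the strict gate (0.52, adjusted p = 0.0279), and both without NZBWF1 replicate 3 (0.43, adjusted p = 0.0366, and 0.49, adjusted p = 0.0309).

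Clec4e was lower in hybrid than in NZB classical monocyte-like cells by -2.11 ± 0.48 (edgeR adjusted p = 0.0281). This call was lost on leaving out any mouse but NZB replicate 1 (adjusted p of 0.0527 to 0.12), and without that mouse it was -2.44 (adjusted p = 5.37e-13). In non-dividing cells, where NZBWF1 mice had 34.6, 28.4 and 35.6 CPM and NZB mice 60.7, 127 and 155 CPM, it was -1.90 ± 0.25 (adjusted p = 1.54e-07), and in dividing cells -3.09 ± 0.81 (adjusted p = 0.0958). In neutrophil-like cells as a whole, where 3.84% of all genes were called, Clec4e (-0.93 ± 0.31, adjusted p = 0.145) and Clec4d (-0.69 ± 0.32, adjusted p = 0.267) did not pass, although Clec4d did with no filter on low counts (-0.68, adjusted p = 0.0129) and Clec4e without NZW replicate 1 (-0.93, adjusted p = 0.0339) or NZW replicate 2 (-0.92, adjusted p = 0.0335). With the replicate number as a block both passed, Clec4e at -0.92 (edgeR adjusted p = 0.000326) and Clec4d at -0.68 (adjusted p = 0.0015). Whether mice of the same number share a batch is not given by the labels. Within stages, where 5.04% of all genes in dividing, 5.7% in immature and 2.5% in mature cells were called, several did: Clec4d in immature cells (-0.84, adjusted p = 0.0225) and in mature cells (-0.81, adjusted p = 0.042), Clec4e in immature cells (-1.07, adjusted p = 0.0436) and in dividing cells (-0.97, adjusted p = 0.0171).

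NZBWF1 against NZW gave 0 calls of 23 tests by edgeR and 0 by DESeq2, with 4 at an unadjusted p under 0.05, where 1.06% of all genes were called in classical monocyte-like and 1.41% in neutrophil-like cells. The fitted differences of Clec4d were 1.205 ± 0.43 in classical monocyte-like cells (adjusted p = 0.282) and 0.85 ± 0.35 in neutrophil-like cells (adjusted p = 0.427), higher in the hybrid. In non-dividing monocyte-like cells Clec4d was at 1.18 ± 0.40 (adjusted p = 0.276). In neutrophil-like cells Clec4d passed with the stricter cell limits (1.63, adjusted p = 0.0173) and with no filter on low counts (0.83, adjusted p = 0.00799). It also passed there with the replicate number as a block (0.91, edgeR adjusted p = 0.000599). Set against the mean of both parents, the hybrid had 1 call of 23 tests (2% of all genes in classical monocyte-like cells): Clec4a1 was higher by 0.51 ± 0.11 (adjusted p = 0.00639). That call was lost without NZB replicate 2 (adjusted p = 0.0566), without NZBWF1 replicate 2 (0.12), with the stricter cell limits (0.82) and in non-dividing cells (0.205), and in dividing cells the value was -0.31 (0.77). Against the mid-parent in classical monocyte-like cells, Clec4a3 passed with clusters in place of gates (0.55, edgeR adjusted p = 0.00496). It also passed with no filter on low counts (0.38, adjusted p = 0.0176) and without NZBWF1 replicate 1 (0.52, adjusted p = 0.00677). Without NZB replicate 1, Clec12a (0.38, adjusted p = 0.0149) and Clec4e (-0.85, adjusted p = 0.00405) passed. The 4 contrasts share their mice and are not independent of each other.

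**Figure D5:**
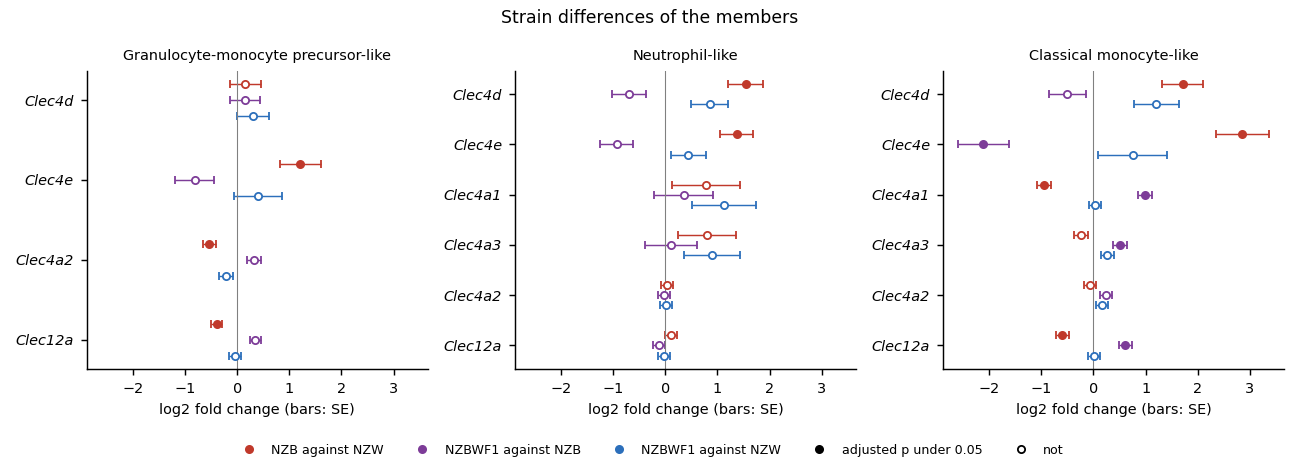
Log2 fold changes with SE bars of the tested members between strains in neutrophil-like, classical monocyte-like and granulocyte-monocyte precursor-like cells, from edgeR fits, with calls marked as the legend gives. Clec4e and Clec4d lie to the NZB side of NZB against NZW in monocyte-like cells (2.86 and 1.71), and Clec4a1 and Clec12a to the NZW side (-0.95 and -0.59).

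The strain difference of Clec12a itself differed between classes. In a fit with strain and class together, the signed NZB minus NZW difference, 0.11 in neutrophil-like and -0.59 in classical monocyte-like cells when each was fitted alone, differed between them by 0.71 ± 0.16 (edgeR adjusted p = 0.00398, 7.66% of all genes called), and without NZW replicate 3 by 0.61 (adjusted p = 0.0518). Clec4a1 (1.71 ± 0.59, adjusted p = 0.0721), Clec4e (-1.40 ± 0.77, adjusted p = 0.37) and Clec4d (-0.20 ± 0.46, adjusted p = 0.849) did not pass. Clec4e passed without NZB replicate 1 (-1.94, adjusted p = 4.15e-06). Clec4a1, with 1 to 12 UMIs per parental mouse in neutrophil-like cells, passed without that mouse (2.09, adjusted p = 0.0188), without NZBWF1 replicate 1 (1.72, adjusted p = 0.0407) and with no filter on low counts (1.72, adjusted p = 0.0282). With only non-dividing monocyte-like cells (7.75% of all genes called) the term of Clec4e was -1.18 ± 0.37 (adjusted p = 0.0428) and that of Clec12a 0.74 ± 0.18 (adjusted p = 0.00269).

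Signalling around the receptors was looked at through a list of 33 adaptors, kinases, phosphatases, NF-κB genes and related genes, the inflammasome genes Nlrp3 and Pycard among them. In classical monocyte-like cells 32 were tested, and 2 were higher and 12 lower in NZB than in NZW mice, with a median of -0.27 against -0.01 over all genes tested, of which 12.4% were higher and 11.4% lower. Within stages the list had 3 higher and 4 lower of 32 in dividing cells (median -0.06, 13.3% of all genes called) and 1 higher and 10 lower of 32 in non-dividing cells (median -0.32, 16.8% called). The 6 with the smallest p were Nlrp3, the inflammasome sensor (-1.78 ± 0.22), Syk (-0.73 ± 0.11), Hcst, the adaptor DAP10 (-1.14 ± 0.20), Malt1 (-0.67 ± 0.14), and the higher Pycard, the inflammasome adaptor ASC (0.68 ± 0.11), and Fgr, a Src-family kinase (0.51 ± 0.12). In the hybrid, 10 were higher and 1 lower than in NZB mice, where 7.75% of all genes were higher and 8.13% lower. Within stages 1 was higher and 3 lower in dividing cells (6.02% of all genes called), and 4 were higher and 1 lower in non-dividing cells (9.58% called). In neutrophil-like cells 31 were tested, with 4 higher and 3 lower in NZB than in NZW mice and a median of 0.01, where 6.62% of all genes were higher and 5.8% lower. There Hcst (-1.28 ± 0.12), Ptpn11, a phosphatase recruited by ITIM receptors (-0.79 ± 0.14), and Syk (-0.46 ± 0.13) were lower, and Fgr (0.79 ± 0.13) and the adaptor Bcl10 (0.51 ± 0.14) were higher. Against NZB neutrophil-like cells, the hybrid was higher in 1, Hcst (0.98 ± 0.12), where 3.84% of all genes were called.

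A list of 32 other C-type lectins had 11 tested in classical monocyte-like cells, of which 2 were higher and 6 lower in NZB than in NZW mice, with a median of -0.62, where 12.4% of all genes were higher and 11.4% lower. Within stages 3 were higher and 1 lower of 9 tested in dividing cells (median -0.20, 13.3% of all genes called), and 2 were higher and 3 lower of 10 in non-dividing cells (median -0.47, 16.8% called). Clec5a, the gene of the DAP12-coupled receptor MDL-1 (1.26 ± 0.15), and Cd302 (0.74 ± 0.14) were the higher ones. Mrc1, the mannose receptor (-1.84 ± 0.36), Clec4b1 (-1.31 ± 0.23), Clec2d (-0.84 ± 0.19) and Cd93 (-0.59 ± 0.12) were lower. Mrc1 is also a marker of the macrophage gate. In neutrophil-like cells as a whole 12 were tested and 0 were called by edgeR or DESeq2, with 5 at an unadjusted p under 0.05. Within stages 1 was higher and 3 lower of 9 in immature cells (13.2% of all genes called). In dividing cells 0 were higher and 1 lower of 8 (11% called), and in mature cells 0 of 4 were called (6.88% of all genes). In immature cells 2 of 9 were higher in the hybrid than in NZB mice (5.7% of all genes called). The lists describe these libraries by counts only.

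Across the means of 13 classes, the genes whose patterns were most like each member were found among 11126 genes, as a description over classes that share libraries and depth. For Clec4a2 they were Hp, C3 and Gm34084 (Pearson r of 0.984, 0.980 and 0.979), the first the gene of haptoglobin and the second that of a complement protein. For Clec4e they were Lst1, Cd300lb and Lyz2 (0.971, 0.948 and 0.948), and for Clec12a Adssl1, Csf2rb and Zfp516 (0.960, 0.946 and 0.913). Clec4a1 had Arsi, Clec4a3 and Sirpb1a (0.991, 0.989 and 0.987), Clec4a3 had Clec4a1, Dnah2 and Arsi (0.989, 0.987 and 0.987), and Clec4n had Clec4a1, Skint3 and Adgre4 (0.978, 0.972 and 0.964). Clec4d stood furthest from any other gene, with Tuba4a, Nfe2 and Slc6a13 (0.910, 0.899 and 0.867), and its r with Clec4e, the neighbour gene, was 0.479.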

How the data were processed

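The authors made the libraries from femur bone marrow of 9 mice with the 10x Chromium 3′ v3.1 kit and sequenced them on a NextSeq 500. Per the submitters' processing notes they used bcl2fastq 2.20 and Cell Ranger 3.1.0 with the build mm10. They deposited a matrix of whole UMI counts per gene and cell barcode, pooled over the libraries with the aggr step. Whether that step equalised depth between libraries was not given in the sources used here. Barcode suffixes were mapped to mice by the order of the library list, and 0 columns had no mouse.

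From these counts, 39051 of 68444 barcodes were kept under the study's limits, a minimum of 1000 UMIs and 500 genes and a maximum of 10% of UMIs from the 13 mitochondrial genes. The barcodes with the highest simulated-doublet scores were removed at 0.8% per 1000 barcodes. Cells were gated by capped marker scores: a class needed a score of at least 0.35 of its top, and no unlike class more than 0.5 of that score. Counts were summed per class and mouse with at least 10 cells and tested with edgeR 4.0.16 (R 4.3.3) in quasi-likelihood fits with filterByExpr, TMM and robust dispersion, adjusted by Benjamini-Hochberg over all genes of the class, at a threshold of 0.05. All 3 strains entered each strain fit. Class fits had the mouse as a block. SEs were derived from the F statistic. For levels, log2(CPM + 1) was used in the order tests. The tests were checked on simulated data. Alternatives were DESeq2 1.42.0, limma 3.58.1 (voom), other scalings, filters, gates, clusters (scanpy 1.11.5, Leiden resolution 2, 41 clusters), cell limits of 2000 UMIs and 1000 genes, doublets left in, free RNA subtracted, replicate number as a block and each mouse left out in turn.

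Named genes were the members, for each list the 6 called genes of smallest p for NZB against NZW in neutrophil-like and classical monocyte-like cells, and for each member the 3 genes of most similar class means. A gene that this rule names is not reported here. The members and lists were chosen with earlier results of these data known. Precision is set by 3 mice per strain and by UMIs per class, and intervals and limits for 0 counts (3 counts) cover counting error only.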

Additional observations from a re-analysis of the deposited data

Results flagged for a closer look

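The signed NZB minus NZW difference of Clec12a was higher in neutrophil-like than in classical monocyte-like cells by 0.71 (log2) in the test of the difference itself, being near 0 in the former and negative in the latter. With only non-dividing monocyte-like cells the term was 0.74. In that second fit Clec4e also differed, by -1.18, its difference being the smaller in neutrophil-like cells. The non-dividing fit was chosen after seeing the data. The share of dividing cells was higher in NZB monocyte-like cells, and its part in the terms was not tested. The non-dividing fit left out dividing cells on the monocyte-like side only and kept the neutrophil-like cells whole. The depth per cell of monocyte-like cells also differed between the strains, and its part in the terms was not tested.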

How the results depend on the processing

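Of the 30 single results that were called, 487 of the alternative values kept direction and call, 56 from 15 results lost the call and 2 reversed. Of those not called, 28 values from 11 results passed and 1 reversed. Leaving out 1 mouse at a time gave 7 to 9 calls over the 23 tests of members by class for NZB against NZW (9 with all mice), 2 to 4 for NZBWF1 against NZB (4), 0 to 3 for the hybrid against the mid-parent (1) and 0 to 3 for the strain by class term (1). It left 0 for NZBWF1 against NZW, 6 for neutrophil-like against monocyte-like cells, 4 to 5 of 5 for nonclassical against classical cells and 3 to 4 of 4 for mature against immature cells. For the 2 lists over 13 classes the 55 calls of a gene in a class between the parents became 39 to 61. With cell limits of 2000 UMIs and 1000 genes the hybrid had 2 calls against NZB, 1 against NZW and 0 against the mid-parent, and with no filter on low counts 1 against NZW and 2 against the mid-parent, with 2 strain by class terms. Clusters in place of gates gave 2 against the mid-parent, and non-dividing monocyte-like cells 2 strain by class terms. Reversals were Clec4a2 in mature against immature cells under library totals (0.029) and, with the stricter cell limits, Clec4a3 in monocyte-like cells for NZB against NZW (0.56) and NZBWF1 against NZB (-0.24). Those limits, under which shallow mature and nonclassical cells are lost, could not be fitted for the nonclassical and mature comparisons, which were not run. In classical monocyte-like cells the limit of 2000 UMIs lay within the NZW median depths (1691 to 2212 UMIs) and below the NZB ones (2838 to 3475). In neutrophil-like cells library totals shifted the median of all genes by -0.17 for NZB against NZW, where Clec4d and Clec4e were still called, and by 0.19 for NZBWF1 against NZB. Library totals, the fits within stages and the block for the kind of library were chosen after seeing the data. The cause of these changes was not tested.

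The labels do not say whether mice with the same replicate number share a batch, and not every such pair met the limit of 0.1 set for treating them as pairs. Same-numbered mice deviated with correlations of -0.02 to 0.26 in neutrophil-like cells, with 6 of 9 pairs over 0.1. There 6 of 9 mice were closest to their own number. Every pair of number 1 (0.20 to 0.24) and of number 2 (0.23 to 0.26) was over 0.1, and those of number 3 were at -0.02 to 0.03. In monocyte-like cells the correlations were -0.05 to 0.04 (0 of 9 pairs over 0.1, 2 of 9 mice closest). In every strain replicate 2 had the highest dividing and lowest mature share of neutrophil-like cells, and replicate 1 the reverse. Libraries of number 2 were all of 1 kind, those of number 3 all of the other, and those of number 1 of both. Whether the numbers mark a batch was not tested. With the replicate number as a block, the calls were 8 between the parents, 6 for the hybrid against NZB, 1 against NZW and 1 against the mid-parent, with 62 in the lists. The block added Clec4e (-0.92, edgeR adjusted p = 0.000326) and Clec4d (-0.68, adjusted p = 0.0015) for the hybrid against NZB. It also added Clec4d (0.91, adjusted p = 0.000599) against NZW, and all were in neutrophil-like cells. With the kind of library as a block these contrasts had 9, 4, 0 and 1 calls. Low UMI numbers limit Clec4n in every class and Clec4d in monocyte-like cells.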
